A study of Homo sapiens with 6 samples.

Results

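MIR loci are the copies of the mammalian-wide interspersed repeat, a short interspersed element (SINE), in the human genome. Members were all transposable element (TE) loci whose annotated family is MIR and that had an entry in at least 1 of 6 libraries, whatever their level. This gave 72129 of 723309 LTR, LINE, SINE and DNA loci. On their own strand, where the read runs in the direction of the repeat, 38239 of 362082 loci were MIR. Polyadenylated RNA came from SW480, an established human colon adenocarcinoma line. Cells carried a lentiviral construct in which the CMV promoter drives either the fluorescent protein Clover (control, 3 libraries) or Z18trunc, a truncated ZC3H18 (3 libraries). Both groups went through lentiviral transduction and puromycin selection, and no other change to either group is named. The study's methods describe separately made lines, 3 of each kind, all from this 1 cell line and with a constitutive viral promoter.

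MIR elements are old. They spread before the placental mammals diversified and no longer move, and their copies differ strongly from one another. A complete copy begins with a part that resembles a tRNA and once carried an internal RNA polymerase III promoter, continues with a core shared by several old SINE families and ends with a tail like that of the L2 LINE, whose machinery is thought to have copied it. Many copies today lie inside genes, in introns or untranslated exons. A read from a MIR copy can thus come from a transcript made by RNA polymerase II for the host gene. ZC3H18 is a nuclear protein that links the cap of new transcripts to the RNA exosome, through the adaptors NEXT and PAXT. Bulk libraries cannot separate more RNA per cell from more cells that make it.

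The sequences below show what the family shares. The most common word of 10 bases over the 72129 MIR loci was GCCTCAGTTT, present in 7.60% of them. Among loci of 100 to 250 bases it was found in 7.88% of MIR loci and in 0.0216% of 180584 other TE loci. At least 8 bases in a row of that word were found in 16.5% of MIR loci and 0.657% of other TE loci of that length. The copies below include an abundant copy outside exons of either strand for each of 4 subfamilies, which for MIR is not the highest one. The other 2 lie within gene spans, outside annotated exons, and had small p-values. All are on hg38 and read on the strand of the copy. Capitals mark bases in a match of at least 8 bases to the word.
MIR at chr3:37976009-37976197, plus strand: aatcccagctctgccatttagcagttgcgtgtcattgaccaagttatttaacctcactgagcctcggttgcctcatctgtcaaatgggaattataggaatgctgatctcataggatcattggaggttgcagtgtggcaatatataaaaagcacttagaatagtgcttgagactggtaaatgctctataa
MIRb at chr1:156645637-156645862, minus strand: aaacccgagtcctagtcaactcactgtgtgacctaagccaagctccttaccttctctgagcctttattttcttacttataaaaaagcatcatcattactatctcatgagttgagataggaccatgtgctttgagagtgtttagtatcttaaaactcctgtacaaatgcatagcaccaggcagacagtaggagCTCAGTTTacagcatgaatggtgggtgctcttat
MIRc at chr15:69745550-69745749, plus strand: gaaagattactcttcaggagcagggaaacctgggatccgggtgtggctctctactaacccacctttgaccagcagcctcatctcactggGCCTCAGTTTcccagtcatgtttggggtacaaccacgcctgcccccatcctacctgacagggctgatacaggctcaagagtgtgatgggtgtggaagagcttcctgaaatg
MIR3 at chr20:38156782-38156889, minus strand: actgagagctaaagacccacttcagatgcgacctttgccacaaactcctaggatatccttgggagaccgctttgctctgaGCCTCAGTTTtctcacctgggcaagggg
MIR at chr1:47436486-47436637, minus strand: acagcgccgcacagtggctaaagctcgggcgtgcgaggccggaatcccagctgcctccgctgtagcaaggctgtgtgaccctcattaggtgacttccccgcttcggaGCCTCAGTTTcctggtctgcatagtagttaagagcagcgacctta
MIRb at chr1:31420858-31420967, plus strand: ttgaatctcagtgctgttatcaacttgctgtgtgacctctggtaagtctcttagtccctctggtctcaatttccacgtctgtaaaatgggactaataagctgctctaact
The copies in introns of DRAIC and TGM2 and the copy within the span of LINC01389 hold the whole word. The copy antisense to BCAN matches 8 bases of it, and the MIR copy on chromosome 3 and the copy in an intron of SERINC2 hold no match. A pattern like the B box of RNA polymerase III promoters, GTTCNANNC, was present on the own strand of 7.31% of MIR loci of 100 to 250 bases and 8.77% of other TE loci of that length. These shares describe letters, not promoters.

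Aligned fragments numbered 18226033 to 22463310 per library. ZC3H18, read from the construct and the endogenous gene together, rose from 57.2 ± 5.39 to 763 ± 31.2 TPM (SD, n = 3 each; log2 change 3.72, limma adjusted p = 3.21e-05). Of 10 colon epithelial markers, 7 had a mean of at least 1 TPM, KRT20 and CDX1 were listed at 0 and LGALS4 lay below 1. Immune markers reached that level in 0 of 4 genes, fibroblast markers in 1 of 5 and melanocyte markers in 1 of 4. These were COL1A1, with means of 1.39 TPM in Clover and 1.35 in Z18trunc, and PMEL, with 1.78 and 2.24. TE counts on the opposite strand outside exons, given as CPM (counts per 1000000 aligned fragments), were 12215, 10971 and 10217 in Clover and 12356, 13592 and 14716 in Z18trunc. That measure was 0.28 higher in Z18trunc on the log2 scale with no overlap, it moves with the MIR sums below, and its part in them was not tested.

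Summed over the family, MIR RNA on its own strand was 2757, 2685 and 2658 CPM in the Clover libraries. It was 2819, 2935 and 2982 CPM in the Z18trunc libraries. Every Z18trunc library lay above every Clover library, by 0.11 on the log2 scale (2700 ± 51.4 against 2912 ± 83.8, SD, n = 3 each). The exact two-sided permutation p was 0.1, the smallest that 3 against 3 libraries allow. Relative to all TE counts of both strands the difference was -0.07, so that the direction depends on the scale. MIR read against the direction of the copy showed the same order, from 2169 ± 92.3 to 2424 ± 84.4 CPM (SD, n = 3 each; log2 0.16, exact permutation p = 0.1).

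Level and difference both varied with the position of the copy relative to genes. Copies over exons of the same strand were 12.9% of the 38239 loci and held 64.9% of MIR counts. Copies in introns, meaning inside a gene span and outside exons on the same strand, were 70.3% of loci and held 27.7%. Copies in genes on the other strand only and copies outside genes held 3.22% and 4.25%.

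Exonic MIR counts on their own strand did not separate the groups. They were 1787, 1837 and 1822 CPM in Clover and 1805, 1854 and 1817 CPM in Z18trunc, a log2 difference of 0.0080 (exact permutation p = 0.8). Intronic MIR counts were 761, 661 and 643 CPM in Clover and 800, 857 and 935 CPM in Z18trunc. All 3 Z18trunc libraries were higher, by 0.33 on the log2 scale (688 ± 63.3 against 864 ± 67.4, SD, n = 3 each; exact permutation p = 0.1). Relative to all TE counts of both strands the difference was 0.15, also without overlap. Clover replicate 1, the highest of its group, lay closest to the Z18trunc libraries. Antisense copies differed by 0.16 (85.6 ± 4.86 against 95.3 ± 3.71 CPM) and copies outside genes by 0.20 (111 ± 7.003 against 128 ± 5.07 CPM; SD, n = 3 each), again without overlap and at an exact permutation p of 0.1. Relative to all TE counts these differences were -0.02 and 0.03, both with overlap.

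**Figure D1:**
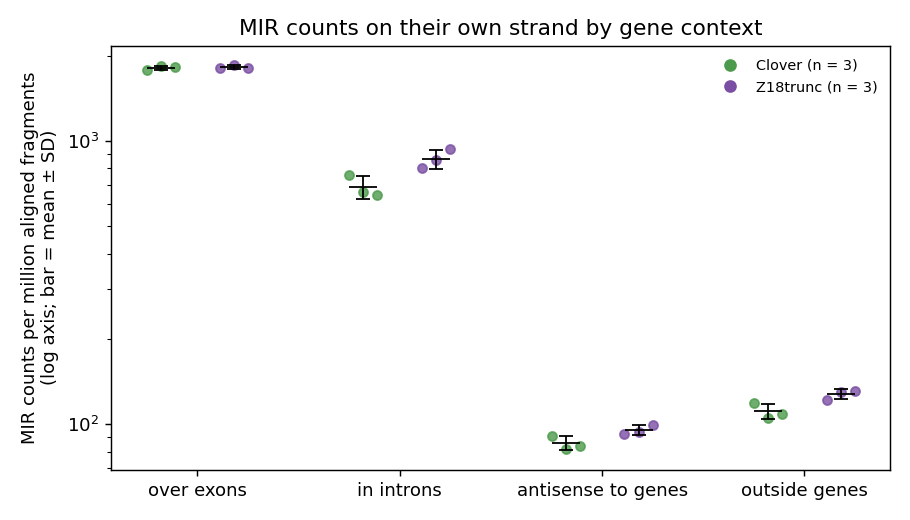
MIR counts on their own strand per library, in CPM on a log axis, by position of the copy relative to genes; points are libraries, bars the mean ± SD. Exonic counts overlap between Clover and Z18trunc, and intronic counts run from 643 to 761 CPM in Clover and from 800 to 935 CPM in Z18trunc.

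The contrast between positions was also taken as a ratio within each library, which is free of library scaling. This ratio was added after the sums were seen. It is made from the same counts, so it restates their difference and is not separate evidence. The log2 ratio of intronic to exonic MIR counts was -1.23, -1.48 and -1.50 in Clover and -1.17, -1.11 and -0.96 in Z18trunc. It was 0.32 higher in Z18trunc without overlap (exact permutation p = 0.1), and between 0.26 and 0.41 higher when each library was left out. The ratio of intronic MIR copies read in their own direction to those read against it differed by -0.01, with overlap (exact permutation p = 0.5). The 2 insertion directions within introns had log2 differences of 0.33 and 0.34, each without overlap. Over exons, copies read in their own direction differed by 0.0080 with overlap. Exonic copies read against their direction differed by 0.056 without overlap (exact permutation p = 0.1). For that direction, exons and introns thus differed in the size of the difference, 0.056 against 0.34, and not in overlap.

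Intronic copies of other old or abundant families were measured the same way. The log2 ratio of intronic MIR to intronic L2, the LINE that shares its tail, differed by -0.02 with overlap (exact permutation p = 0.4). It was -0.04 when Z18trunc replicate 1 was left out and -0.07 without the 20 most abundant loci of each sum, both without overlap. The ratio to intronic Alu, the primate SINE derived from 7SL RNA, differed by 0.13 with overlap (exact permutation p = 0.4). That value rested on single libraries: it was 0.03 without Clover replicate 2, and 0.21 without overlap when Clover replicate 1 was left out. Over all positions the ratio of MIR to L2 was 0.08 lower in Z18trunc without overlap (0.57 ± 0.02 against 0.49 ± 0.04, SD, n = 3 each; exact permutation p = 0.1). Outside exons that difference was -0.04 with overlap. The ratio of MIR to Alu differed by -0.0060 with overlap (exact permutation p = 0.9), and by -0.05 without overlap when Clover replicate 2 was left out.

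The family has 5 annotated subfamilies. MIR and MIRb, the most numerous with 11328 and 14736 loci, were higher in all 3 Z18trunc libraries. MIR held 620, 572 and 562 CPM in Clover and 629, 659 and 700 CPM in Z18trunc. MIRb held 862, 806 and 805 CPM in Clover and 895, 930 and 949 CPM in Z18trunc. The edgeR quasi-likelihood test gave log2 changes of 0.18 (SE 0.06, adjusted p = 0.102) and 0.17 (SE 0.06, adjusted p = 0.0967). None of the 5 passed the adjustment over 898 TE subfamilies, of which 1.89% did. MIRc (0.07), MIR3 (0.02) and MIR1_Amn (-0.03) overlapped between groups. MIR passed (adjusted p = 0.0407) when Z18trunc replicate 1 was left out, where 9.28% of TE subfamilies passed. MIR and MIRb passed with uniquely mapped counts (adjusted p = 0.0218 and 0.0192), where 6.65% did. Without the adjustment, p lay under 0.05 for 2 of the 5, both higher, where 24.6% of TE subfamilies were so on the higher side and 0.0% on the lower. With TMM scaling all 5 were negative and p lay under 0.05 for 0 higher and 3 lower ones, beside 5.35% and 4.79% of TE subfamilies.

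**Figure D2:**
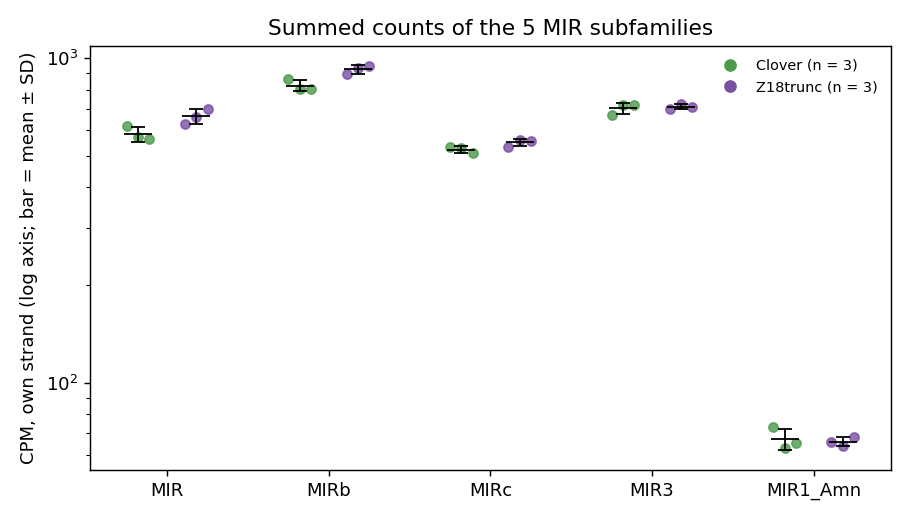
Summed own-strand CPM of each MIR subfamily per library on a log axis, with the mean ± SD. MIR and MIRb do not overlap between groups, while MIRc, MIR3 and MIR1_Amn do.

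A few copies held much of the counts of MIR3 and MIRc. A single locus held 35.02% of MIR3 counts and another held 14.6% of MIRc counts. Without the 20 most abundant loci of each, log2 differences were 0.23 for MIR, 0.22 for MIRb, 0.16 for MIRc, 0.19 for MIR3 and 0.17 for MIR1_Amn. Groups then overlapped in MIR1_Amn and in none of the other 4. Median divergence from the consensus was 26.9% in MIR and 28.9% to 29.2% in the others.

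Single copies were mostly sparse. Of 38239 loci, 20854 had a count in 1 library and 2379 in all 6, and 1265 reached the 30 counts over 6 libraries needed for a test. A count of 0 in a library allows up to 3 counts, 0.134 to 0.165 CPM. The edgeR test called 0 of the 1265 at an adjusted p under 0.05, against 25 of 12453 tested TE loci (0.201%). On simulated counts the same fit recovered 20% of 2-fold changes, so 0 calls do not show that no locus changed. Without the adjustment, p lay under 0.05 for 79 higher and 31 lower MIR loci. Among all tested TE loci the shares were 8.17% higher and 1.77% lower. The balance turned with the scale. With TMM scaling the counts were 40 higher and 73 lower MIR loci, beside 3.89% and 4.57% of TE loci, and with library size from opposite-strand TE counts 19 and 99, beside 2.38% and 6.49%. DESeq2 with its own size factors left 623 TE loci, 70 of them MIR, with an adjusted p after its filter. It called 18 of these, which is 0.145% of all tested TE loci. Of the calls 5 were MIR loci, all exonic and lower. These were the copies in KLK6, NTSR1 and TGM2 described below, a MIRb copy at chr19:51014307-51014522 and a MIR1_Amn copy at chr20:62761699-62761776, the last pair named after their values were seen. That call was lost when DESeq2 p-values were adjusted over all tested loci (0 called), and DESeq2 with size factors from aligned fragments called 0. Uniquely mapped counts gave 1 call, higher, and so did the fit without Clover replicate 1, where 0.3% and 0.288% of TE loci were called. The median log2 change was 0.12 over MIR loci and 0.17 over all TE loci, and -0.05 over MIR loci with TMM scaling.

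Tested loci were also grouped by position. The median log2 change was 0.31 over 276 intronic MIR loci, of which 202 were higher. It was 0.07 over 905 exonic loci, 0.16 over 35 antisense loci and 0.11 over 49 loci outside genes. All tested TE loci had medians of 0.29, 0.12, 0.16 and 0.20 at these positions. Without the adjustment, p lay under 0.05 for 28 higher and 3 lower intronic MIR loci, where the shares of intronic TE loci were 9.83% and 1.34%. These loci come from the same libraries as the sums and are not separate evidence.

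**Figure D3:**
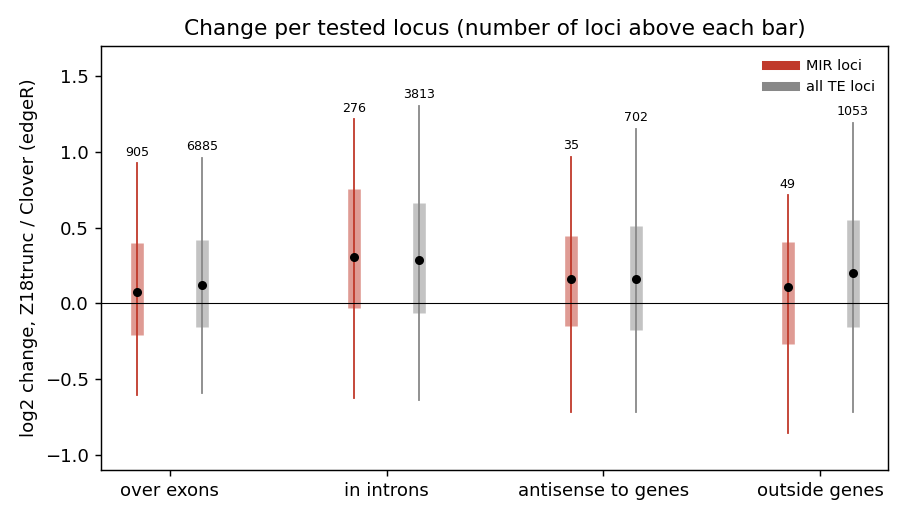
Log2 change per tested locus (edgeR) by position, for MIR loci and all TE loci; dots are medians, thick bars the middle 50% and thin lines the 5th to 95th percentile. The medians of intronic MIR and intronic TE loci are 0.31 and 0.29, and those of exonic loci 0.07 and 0.12.

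Counting by rank, 1041 of 38239 MIR loci had 3 Z18trunc FPKM values all above or all below the 3 Clover values, 697 higher and 344 lower. The share, 2.72%, lay near the 2.93% of all TE loci, of which 1.92% were higher and 1.01% lower. With at least 30 counts 197 of 1265 MIR loci separated, 133 higher and 64 lower, which is 15.6%. Of all TE loci at that depth 13.6% did, 9.83% higher and 3.73% lower.

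The 10 most abundant copies all lay over exons, 9 of them in 3' untranslated regions alone and 1 over coding and untranslated exons of PRDX5, which encodes an antioxidant enzyme. CPM is not divided by length, so this is an order of counts. The first was a MIR3 copy of 173 bases in TGM2, the tissue transglutaminase (chr20:38129161-38129333), which held 8.80% of all MIR counts. It had 222, 285 and 277 CPM in Clover and 232, 232 and 232 CPM in Z18trunc, with overlap (log2 -0.17, SE 0.09, edgeR adjusted p = 0.517). TGM2 itself was listed at 1963, 1811 and 2120 TPM in Clover and 1958, 1094 and 1920 TPM in Z18trunc, so that the low second Z18trunc value of the gene was not seen in the copy. The second, a MIRc copy in the amino acid transporter SLC7A5, had 72.7 to 84.0 CPM over the 6 libraries (log2 -0.09, edgeR adjusted p = 0.821). Among the others were copies in SCD, a fatty acid desaturase, and TNS4, a focal adhesion protein, both under 30 CPM in every library.

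**Figure D4:**
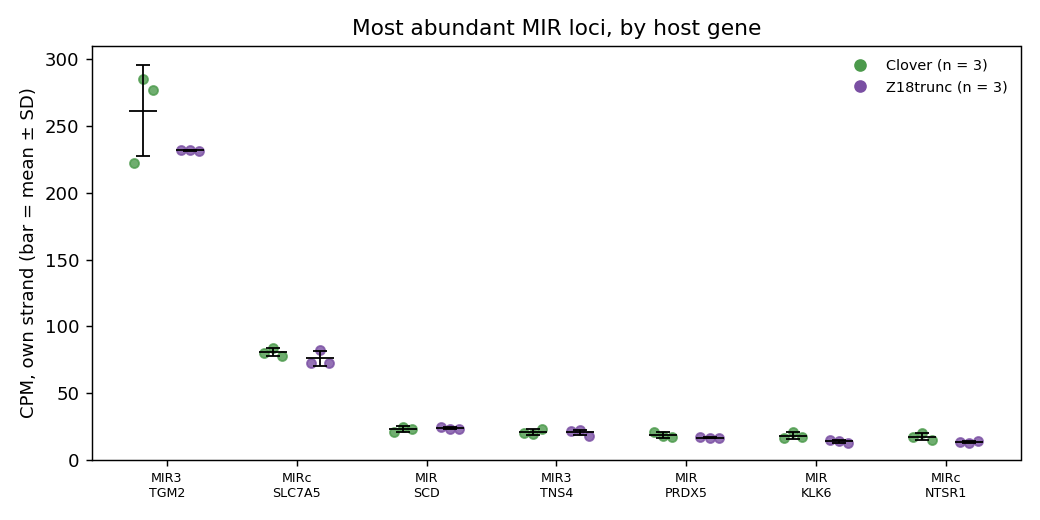
Own-strand CPM per library of 7 of the 10 most abundant MIR loci, labelled by subfamily and host gene, with the mean ± SD. The copy in TGM2 lies between 222 and 285 CPM, and the others lie below 85 CPM.

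Among the higher loci with the smallest p-values, a MIR3 copy in the 3' untranslated region of IGFBPL1 (chr9:38408690-38408835) had 4, 0 and 0 counts in Clover and 13, 15 and 8 in Z18trunc. The 3 Z18trunc libraries were all higher, which the choice by small p favours, and the edgeR adjusted p was 0.0737. A MIRc copy in exons of the zinc-finger gene REPIN1 had 2.80, 2.09 and 2.80 CPM in Clover and 3.83, 6.04 and 3.86 CPM in Z18trunc (log2 0.82, SE 0.20, edgeR adjusted p = 0.0847). It passed with uniquely mapped counts (adjusted p = 0.0105), and the copy in IGFBPL1 passed without Clover replicate 1 (adjusted p = 0.00635).

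The other 3 of these were intronic as defined above. For the copy within LINC01389 the span came from the deposited genes only, so its place relative to exons of that gene was not known. The copy within the span of LINC01389 had 2, 1 and 2 counts in Clover and 9, 9 and 12 in Z18trunc (edgeR adjusted p = 0.135). The copy in the intron of TNS4 had 5, 3 and 1 counts in Clover and 12, 10 and 17 in Z18trunc (edgeR adjusted p = 0.145). The copy in the intron of SERINC2 had 4, 3 and 6 counts in Clover and 16, 17 and 13 in Z18trunc (edgeR adjusted p = 0.146). They were chosen for small p-values, so their lack of overlap between groups is no separate result. Most of the counts that took them past the minimum came from Z18trunc, and none passed the adjustment. TNS4 itself had 185 ± 16.3 TPM in Clover and 198 ± 9.97 TPM in Z18trunc (SD, n = 3 each; log2 0.10, limma adjusted p = 0.496), and its exonic MIR3 copy a log2 change of -0.01.

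The 5 lower loci with the smallest p-values lay over exons. Those in the 3' untranslated regions of FBXO31, NTSR1, KLK6 and TBC1D2 had log2 changes of -0.69, -0.40, -0.38 and -0.64, and their edgeR adjusted p-values were 0.232 to 0.274. A MIRb copy in an exon of the long noncoding RNA NUP50-DT had 2.23, 2.09 and 1.58 CPM in Clover and 1.20, 0.988 and 1.22 CPM in Z18trunc (log2 -0.78, edgeR adjusted p = 0.286). The whole NUP50-DT transcript had 18.7 ± 0.94 and 14.6 ± 1.23 TPM (SD, n = 3 each; log2 -0.34, limma adjusted p = 0.0835).

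Outside genes, the most abundant copy was a MIRb of 235 bases on chromosome 8, whose nearest annotated gene was LINC02964. It had 6.80 to 8.64 CPM in Clover and 7.48 to 8.86 CPM in Z18trunc (edgeR adjusted p = 0.982). Among copies antisense to genes, the MIRb copy opposite BCAN was highest, with 19.0, 10.7 and 13.1 CPM in Clover and 16.2, 15.97 and 15.7 CPM in Z18trunc. The next copies, on chromosomes 8 and 10 outside genes and opposite MYO3B and C11orf68, had 1.03 to 3.16 CPM per library. The BCAN copy overlapped between groups (log2 0.16, SE 0.14, edgeR adjusted p = 0.780). The most abundant intronic copy, a MIRb in HNRNPAB, had 62 to 97 counts per library, of which 11 to 23 were uniquely mapped. Its level rests mostly on reads beyond the uniquely mapped ones. The next, in DRAIC and TGM2, had 1.74 to 3.72 CPM per library.

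Host genes were set beside their MIR copies, on unlike scales. Locus changes are from counts per aligned fragment. Host changes are from log2(TPM + 1), where the median change over all genes was 0.11. For 238 intronic tested loci with 1 tested host, the median log2 change was 0.04 for the host, beside 0.31 over all 276 intronic loci. For 830 exonic loci the host median was 0.08, beside 0.07 over all 905 exonic loci. Over loci, which share libraries and often hosts, Pearson's r between locus and host was 0.05 for introns and 0.31 for exons. Of 14 tested hosts of named loci limma called 0, where 0.015% of 13300 genes were called. Without the adjustment, p lay under 0.05 for 2 higher and 1 lower hosts, where the shares of all genes were 25.6% and 2.9%. DRAIC was listed at 0 TPM and LINC01389 lay at 0.0357 to 0.821 TPM, below the minimum for a test. Of the tested hosts IGFBPL1 and NUP50-DT had the smallest adjusted p-values, 0.09995 and 0.0835.

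**Figure D5:**
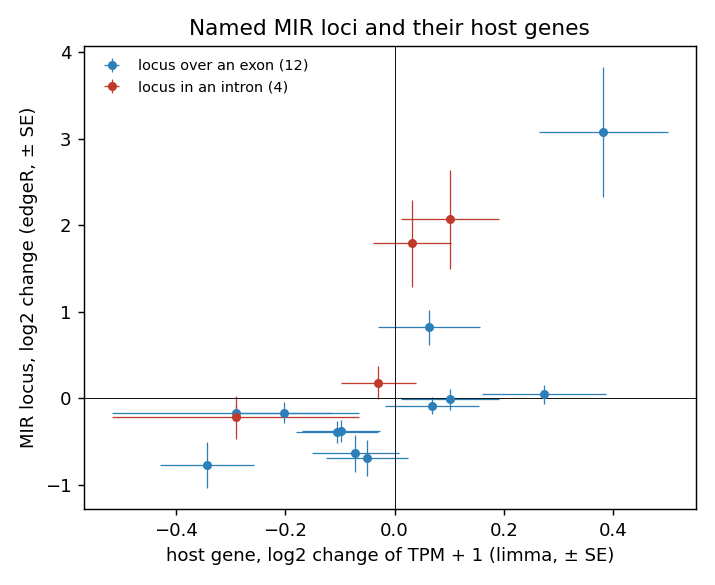
Log2 change of named MIR loci (edgeR, ± SE) against that of their host genes (limma on TPM + 1, ± SE). Intronic loci in TNS4 and SERINC2, named for small p-values, lie at 2.07 and 1.79 where their hosts lie at 0.10 and 0.03, and those in HNRNPAB and TGM2, named for abundance, at 0.18 and -0.22 where their hosts lie at -0.03 and -0.29.

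RNA polymerase III once transcribed MIR elements, so genes of its machinery were listed. Of 31 genes, limma called 0. Without the adjustment, p lay under 0.05 for 5 higher and 0 lower genes, where the shares of all genes were 25.6% and 2.9%. The list's median log2 change was 0.08, against 0.11 over all genes. With quantile normalization the counts were 3 higher and 2 lower, beside 12.8% and 10.9% of all genes, and the list's median was -0.03. The largest changes were in POLR3B, the second largest subunit, from 2.17 ± 0.39 to 3.70 ± 0.62 TPM (SD, n = 3 each; log2 0.57, limma adjusted p = 0.0783), and in BDP1, a subunit of the initiation factor TFIIIB, from 1.68 ± 0.59 to 2.62 ± 0.69 TPM (log2 0.44, limma adjusted p = 0.183).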

How the data were processed

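PolyA-selected stranded RNA-seq of 6 SW480 libraries was used, grouped by title. The submitters' processing notes name cutadapt 4.6 and the build hg38. The authors ran SQuIRE on lines made in biological triplicate; it assigns reads to RepeatMasker loci. The deposited TE tables hold uniquely mapped counts, an estimated count from SQuIRE, which uses expectation maximization, and FPKM. The deposited gene tables hold TPM. In 91.7% to 93.3% of MIR entries with reads beyond the unique ones, each extra read entered the estimated count at a fixed part of its value, and unique counts made up 75.6% to 78.2% of the estimated count.

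CPM was the estimated count per aligned fragment, times 1000000. Estimated counts were rounded and tested with edgeR 4.0.16 (quasi-likelihood, library size from aligned fragments, at least 30 counts), with Benjamini-Hochberg adjustment over all TE loci or subfamilies and a threshold of 0.05. Genes with a mean of at least 1 TPM were tested with limma 3.58.1 on log2(TPM + 1), which understates changes of low genes. Sums were compared by exact two-sided permutation tests. Position came from gene spans and exons of GENCODE 44 and the deposited spans (bedtools 2.31.1). DESeq2 1.42.0 was an alternative. On simulated data the locus fit recovered 20% of 2-fold and 75% of 4-fold changes. The subfamily fit recovered 77% and 98%, and the gene fit 100% of both. Each simulation gave all its features the same fixed spread, which was not matched to the spread of the real libraries. The recovered shares may thus not hold for these data, and 0 called genes do not show that no gene changed.

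Members, lists and tests were chosen with earlier results of these data known. Named loci were those called, the 5 higher and 5 lower with the smallest p, the 10 most abundant, and the 3 most abundant outside genes, in introns and antisense; 3 of these loci and 1 sequence are not reported here. Copies on chromosome 8 were left out when sequences were chosen. The intron ratios and DESeq2 adjusted over all loci were added after seeing the data. Libraries of 1 group differed beyond counting noise (chi-square per degree of freedom 1.57 to 1.99). Intervals and floors cover counting error only, and p-values measure the spread between these libraries.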

Additional observations from a re-analysis of the deposited data

How the results depend on the processing

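With all TE counts of both strands as the scale, log2 differences turned to -0.070 for the family sum, -0.018 for the opposite strand, -0.17 over exons and -0.023 for antisense copies, and copies outside genes overlapped at 0.026. This scale itself contains MIR counts and TE RNA that was higher in Z18trunc. Without the 20 most abundant loci, exonic sums no longer overlapped (0.070), copies outside genes did (0.22), intronic MIR against L2 separated (-0.071) and MIR against Alu was 0.039. Outside exons MIR against Alu was 0.12, and MIR against L2 (-0.035) and own against opposite strand (-0.015) overlapped. With uniquely mapped counts own against opposite strand overlapped (-0.053), 1 locus was called and 2 subfamilies were called. Opposite-strand counts gave 2 called MIR subfamilies, where 12.6% of TE subfamilies were called, and 0.0051 for MIR1_Amn, and DESeq2 with its own size factors 5 loci. Separation by rank counted 197 loci with at least 30 counts and 479 with at least 10, since fewer loci entered. Other causes were not tested.

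Leaving out each library gave ranges of -0.0034 to 0.016 for exons, -0.051 to 0.026 for MIR against Alu, 0.032 to 0.21 for intronic MIR against Alu, -0.036 to -0.0016 against L2, -0.020 to 0.00037 for the 2 insertion directions, 0 to 1 called loci and 0 to 1 called subfamilies. The intronic sum stayed without overlap at 0.27 to 0.40. Values that changed sign ranged from -0.070 to 0.037 for MIR1_Amn and -0.015 to 0.034 for MIR3 as subfamilies. Among copies the ranges were -0.071 to 0.072 for MIR3 in the TNS4 exon, -0.45 to 0.16 for the intronic MIR3 of TGM2, -0.019 to 0.10 in SCD and -0.32 to 0.044 in DRAIC. They were -0.28 to 0.46 opposite C11orf68, -0.012 to 0.42 opposite BCAN, and -0.10 to 0.18 for MIR and -0.074 to 0.091 for MIRb on chromosome 8. The gene REPIN1 ranged from -0.0075 to 0.14.

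Scaling turned several small changes negative. With TMM the subfamilies MIR, MIRb, MIRc and MIR3 were at -0.022, -0.036, -0.13 and -0.18, with DESeq2 size factors at -0.027, -0.040, -0.13 and -0.19, and with library size from opposite-strand TE counts at -0.10, -0.12, -0.21 and -0.27. The copies in SCD, opposite C11orf68 and BCAN and the MIR and MIRb copies on chromosome 8 were at -0.13, -0.044, -0.013, -0.14 and -0.15 with TMM. They were at -0.12, -0.035, -0.0092, -0.14 and -0.14 with DESeq2 and -0.24, -0.15, -0.11, -0.25 and -0.25 with opposite-strand library size, where the copies opposite MYO3B and in HNRNPAB were at -0.039 and -0.11.

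The replicate numbers did not pair the libraries: correlations of deviations between same-numbered libraries were 0.000511, -0.0187 and -0.035. With a replicate block, edgeR called 0 MIR loci and 0 MIR subfamilies, and 7 of 898 TE subfamilies in place of 17. With 30 counts over 6 libraries as the minimum, depth left 3.31% of MIR loci open to a test.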
